A study of Mus musculus with 24 samples.

Results

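The genes described here are 10 markers of intestinal stem cells and targets of Wnt signalling in the mouse: Lgr5, Ascl2, Olfm4, Axin2, Smoc2, Cd44, Sox9, Ephb2, Ephb3 and Rnf43. They were taken by name, in a choice made with earlier results of these data known. Of the 10, 9 had a row among the 21441 genes of the tables, and all 9 passed the filter on low values in all 3 regions measured. Olfm4 was not analysed here. The stem cells of the intestine lie at the base of the crypts and divide throughout life. Wnt proteins reaching the crypt base stabilise beta-catenin, which enters the nucleus, joins the TCF/LEF factors on DNA and raises the transcription of target genes, several of which feed back on the signal. Toward the top of the crypt the Wnt signal declines and cells leave the cycle and differentiate.

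The libraries hold poly(A) RNA of 3 gut regions, duodenum, ileum and colon, from wild-type mice of the C57BL6J strain. The treated mice, labelled 3xD, received calcitriol (1,25-dihydroxyvitamin D3, 1,25D3, the hormone form of vitamin D) in 3 injections of 1 ng per g body weight, given 48, 24 and 6 h before the end, and their labelled ages ran between 10 and 14, with no unit stated. The mice they were set against, labelled minusD, were vitamin D-deficient with the treatment given as none, at labelled ages between 10 and 13; both groups held both sexes, and the libraries could not be tied to a sex or an age. Of 23 libraries used, the duodenum and the colon each had 4 treated and 4 deficient, whereas the ileum had 4 treated and 3 deficient. The labels do not say whether the treated mice were deficient before the injections, and no vitamin D-replete untreated group is among the samples used. The protocol text is shared by all samples and names whole tissue, isolated epithelium and organoids without saying which these libraries came from. Markers of fibroblasts summed to between 52.1 and 497 FPKM and those of smooth muscle to between 143 and 3600 FPKM over the 23 libraries, so transcripts of non-epithelial cells were present in all of them.

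FPKM scales fragments to transcript length and library size, so levels can be compared between genes. Whole reads recovered from the FPKM steps summed to between 13092820 and 30280159 in duodenal libraries, between 13186008 and 31167306 in ileal ones and between 12276116 and 24224879 in colonic ones. Libraries carry either a serial number (treated 1, deficient 1, 2 and 3, whose columns are headed Vehicle) or a 4-digit number (treated 3xD5711, 3xD5720 and 3xD5734, deficient minusD5718). The 4-digit libraries were the shallower ones in every region, at most 15305464 reads against at least 18901718 in the serial ones, and 3 of the 4 treated libraries belong to that scheme against 1 of the 4 deficient ones (none of the 3 in the ileum). Values within a scheme therefore set 1 treated against 3 deficient libraries (serial) or 3 treated against 1 deficient (4-digit). Cyp24a1, the enzyme that breaks calcitriol down and a standard sign of its action, averaged 346 ± 236 FPKM in treated duodenum and 0.114 ± 0.203 FPKM in deficient duodenum (SD, n = 4 each, limma adjusted p = 0.0034). Treated libraries stood above all deficient ones in each region, although the ileum (limma adjusted p = 0.706) and the colon (limma adjusted p = 0.456) did not pass. The treated level was uneven there. In treated libraries 1, 3xD5711, 3xD5720 and 3xD5734 Cyp24a1 had 6.12, 40.3, 543 and 5.34 FPKM in the ileum. In the colon it had 2.67, 108, 370 and 277 FPKM in the same order. Values within serial libraries rest on treated library 1 as their only treated library, which was low in Cyp24a1 in the ileum and colon.

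None of the 9 genes changed by the test used throughout, limma on log2(FPKM + 1) with Benjamini-Hochberg adjustment over all genes and a threshold of 0.05. Of all genes it called 3 of 11734 (0.0256%) in duodenum, 0 of 12149 (0%) in ileum and 0 of 12746 (0%) in colon. With limma at an unadjusted p under 0.05 the duodenum had 1103 genes (9.4%), the ileum 709 (5.84%) and the colon 746 (5.85%), and among the 9 genes these were Sox9 in the duodenum, Ascl2 and Ephb3 in the ileum, and Ephb3 in the colon. A voom fit on the recovered reads, which leaves out Cd44, called 1 gene in ileum, 0 in duodenum and 0 in colon, and none of the 9. The log2 difference lay below 0, that is lower in treated mice, for 3 of the 9 genes in the duodenum, against 48.1% of all genes tested there, for 7 of 9 in the ileum, against 48.3%, and for 8 of 9 in the colon, against 52.7%. The median difference of the 9 genes was 0.11, -0.18 and -0.18 on the log2 scale in the 3 regions, and that of all genes was 0.011, 0.012 and -0.014. The 9 levels summed to between 45.7 and 52.4 FPKM in treated duodenum and between 44.7 and 47.6 FPKM in deficient duodenum. In the ileum the sums were 56.1 to 71.0 FPKM in treated and 70.5 to 76.1 FPKM in deficient libraries, and in the colon 63.3 to 77.6 FPKM in treated and 75.8 to 92.8 FPKM in deficient libraries. In these bulk samples, fewer cells of a type and less RNA per cell cannot be told apart. The labels do not say whether the samples of a group came from separate animals, so the p-values measure the spread between these samples.

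**Figure D1:**
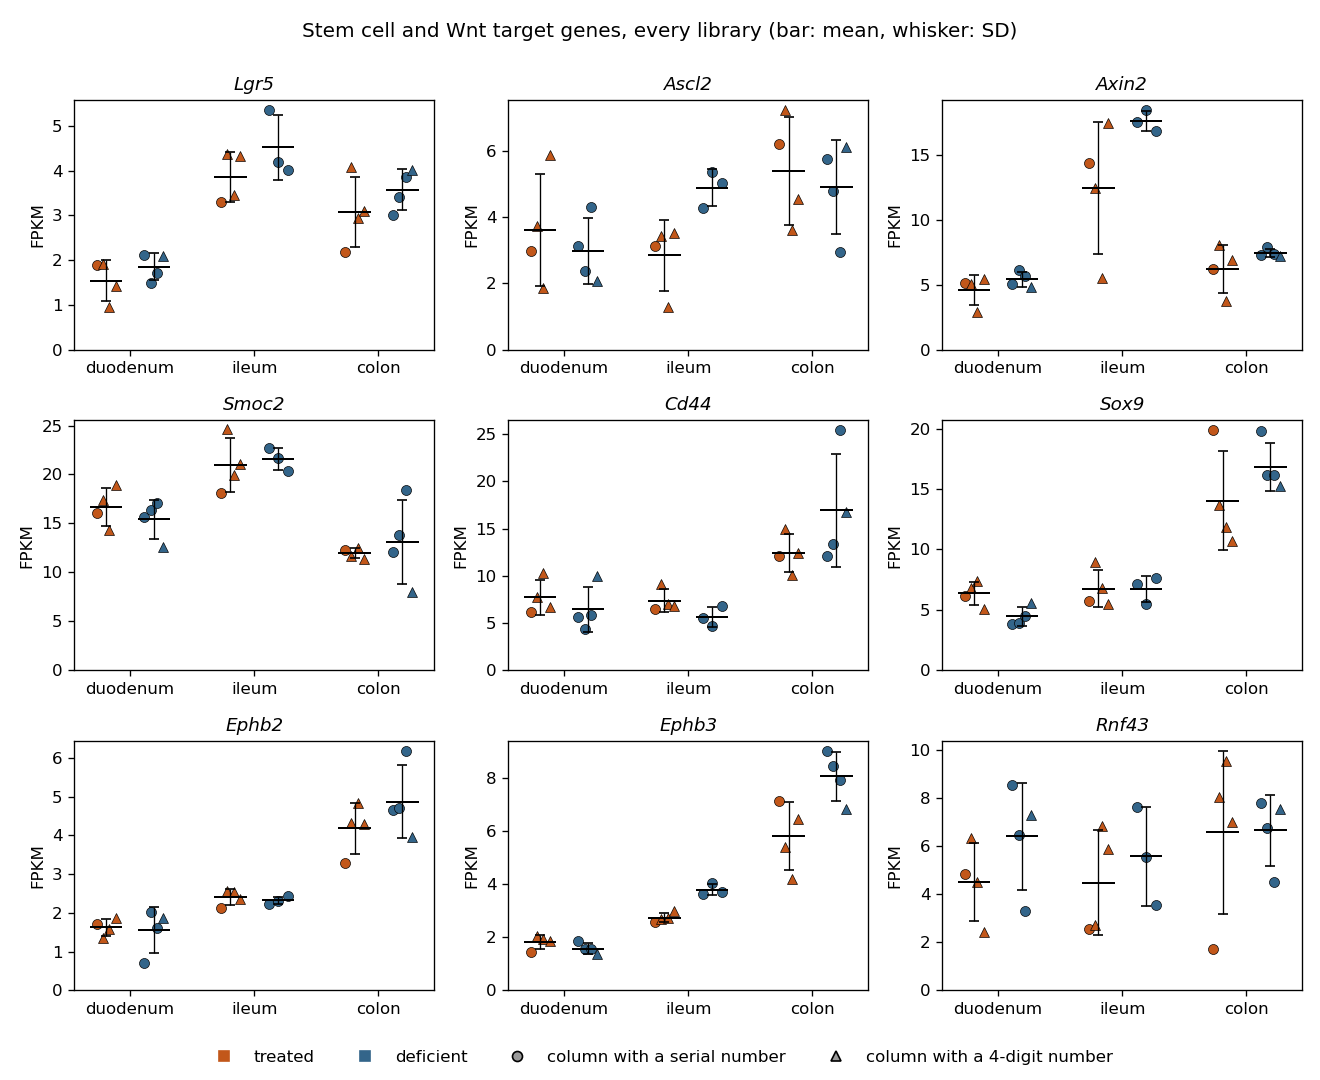
FPKM of each of the 9 genes in every library, by region, with treated libraries (orange) left of deficient ones (blue), circles for libraries with a serial number, triangles for those with a 4-digit number, bars for group means and whiskers for the SD. The groups stand apart only for Ascl2 and Ephb3 in the ileum, where every treated library is below every deficient one.

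**Figure D2:**
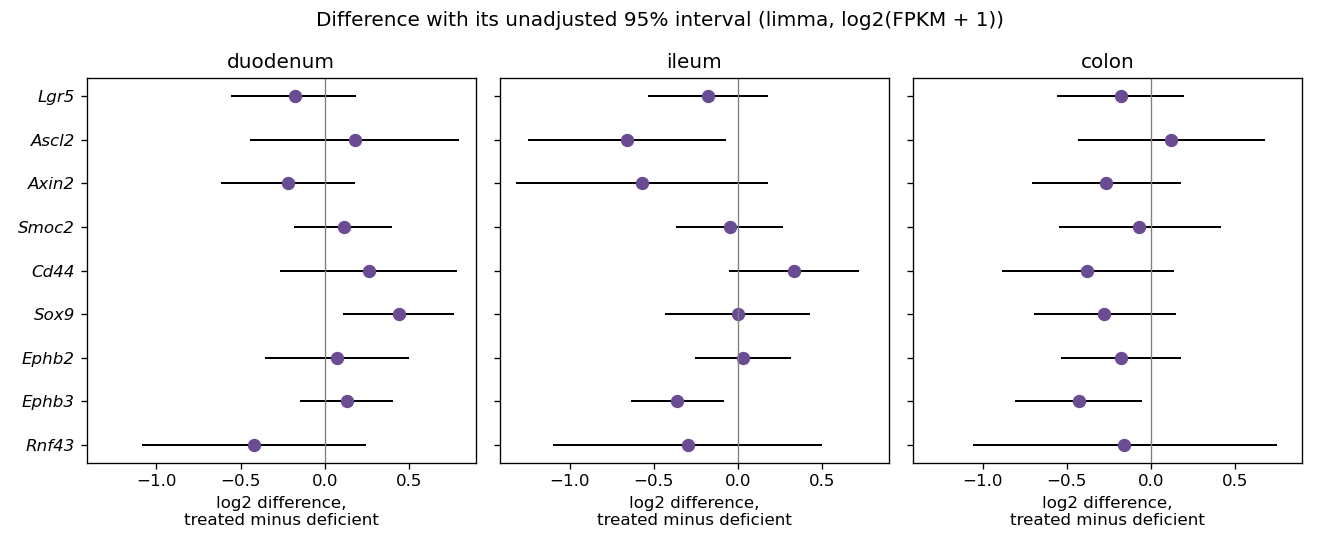
Difference between treated and deficient libraries in log2(FPKM + 1) for each of the 9 genes and region, with its 95% confidence interval from limma. The intervals exclude 0 for Sox9 in the duodenum, Ascl2 and Ephb3 in the ileum, and Ephb3 in the colon, and no difference passed the adjusted threshold.

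The promoters of Ephb3, Ascl2 and Axin2 are shown with the motifs of the TCF/LEF factors and of the vitamin D receptor searched in them, because Ephb3 and Ascl2 were the genes whose ileal groups stood apart and Axin2 is a usual gauge of the Wnt signal. The sequences are RefSeq's, from the 250 bases before the annotated start, on the gene's own strand (GRCm38.p6): Ephb3 at chr16:21204545-21204794 on the plus strand, Ascl2 at chr7:142969265-142969514 on the minus strand and Axin2 at chr11:108920099-108920348 on the plus strand. Capitals mark a half-site on the opposite strand.
Ephb3: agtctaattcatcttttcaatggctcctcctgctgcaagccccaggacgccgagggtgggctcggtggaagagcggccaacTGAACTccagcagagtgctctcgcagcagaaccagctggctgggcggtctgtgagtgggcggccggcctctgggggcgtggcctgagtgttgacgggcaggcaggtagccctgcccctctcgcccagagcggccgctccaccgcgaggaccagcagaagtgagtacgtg
Ascl2: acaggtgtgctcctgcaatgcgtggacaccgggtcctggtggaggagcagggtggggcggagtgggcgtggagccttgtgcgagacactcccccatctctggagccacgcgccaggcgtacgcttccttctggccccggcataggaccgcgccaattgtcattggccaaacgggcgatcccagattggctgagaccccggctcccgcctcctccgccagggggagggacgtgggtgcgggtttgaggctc
Axin2: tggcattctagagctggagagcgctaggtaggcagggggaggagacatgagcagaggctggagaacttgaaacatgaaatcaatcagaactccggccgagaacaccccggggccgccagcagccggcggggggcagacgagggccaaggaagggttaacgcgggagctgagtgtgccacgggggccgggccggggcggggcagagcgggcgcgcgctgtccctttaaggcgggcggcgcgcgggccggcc
Both strands were searched for the TCF/LEF cores CTTTGA (in 13.8% of promoter windows of this length) and CTTTGT (in 16.5%). They were also searched for nuclear receptor half-sites, of which a vitamin D response element usually has a pair: AGGTCA (in 14.0%), AGTTCA (in 11.8%) and GGTTCA (in 8.8%). Either core occurred in 27.6% and any half-site in 30.7% of the 32851 windows. The 3 windows above held no core, nor did those of Cd44, Ephb2 and Rnf43, the other genes of the set with both a window and expression values. The Ephb3 window held AGTTCA once, on the minus strand between 169 and 164 bases before the start, and those of Ascl2, Axin2, Cd44 and Ephb2 held no half-site. Of 2 Rnf43 windows, one for each annotated start, the first held none, and the second (chr11:87699647-87699896) held AGTTCA on the minus strand between 20 and 15 bases before the start and again on the plus strand between 13 and 8 bases before it. A match is a description of the letters, and no match says only that these letters are not in these windows.

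Among the markers of the stem cell itself, Lgr5 encodes a receptor for R-spondins, secreted proteins that strengthen the Wnt signal, and marks the columnar cells at the crypt base. It lies on chromosome 10 at 114887367 to 115024836 on the minus strand (NCBIM37, the assembly of mm9), where the annotation also has a protein-coding gene on the opposite strand; the labels do not say whether counting used strand, so reads of such partners cannot be told apart. In the duodenum Lgr5 had 1.88, 1.91, 0.942 and 1.41 FPKM in treated libraries 1, 3xD5711, 3xD5720 and 3xD5734, against 2.1, 2.11, 1.49 and 1.72 FPKM in deficient libraries minusD5718, 1, 2 and 3. In the ileum it had 3.31, 4.37, 3.45 and 4.33 FPKM in treated libraries in the same order, against 5.36, 4.19 and 4.02 FPKM in deficient libraries 1, 2 and 3. In the colon the values were 2.18, 4.09, 2.95 and 3.09 FPKM in treated and 4.02, 3.0, 3.42 and 3.85 FPKM in deficient libraries. The groups overlapped in all 3 regions, and 3xD5720 was the lowest duodenal library. The difference was -0.18 ± 0.16 in duodenum, -0.18 ± 0.15 in ileum and -0.18 ± 0.16 in colon (log2, SE), with limma adjusted p of 0.672, 0.729 and 0.911. None exceeded the spread between libraries, and their equality to the second decimal is not firm: with 1 library left out they ran between -0.26 and -0.06 (highest without 3xD5720), between -0.25 and -0.08 (highest without deficient 1) and between -0.29 and -0.07 (highest without treated 1). Within serial libraries they were 0.06, -0.35 and -0.47, and within 4-digit ones -0.38 in the duodenum and -0.21 in the colon.

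Ascl2, a basic helix-loop-helix transcription factor that maintains the identity of Lgr5-positive cells and is itself a Wnt target, lies on chromosome 7 at 150152727 to 150155169 on the minus strand (NCBIM37). It showed the lowest treated level relative to deficient of any of the 9 genes in the ileum. There it had 3.13, 3.44, 1.27 and 3.53 FPKM in treated libraries 1, 3xD5711, 3xD5720 and 3xD5734, against 4.26, 5.37 and 5.02 FPKM in deficient libraries 1, 2 and 3. Every treated ileum was below every deficient one, as for 3.21% of all genes in that direction (6.56% in either). The mean was 2.84 ± 1.06 FPKM in treated (SD, n = 4) and 4.88 ± 0.566 FPKM in deficient ileum (SD, n = 3), a log2 difference of -0.66 ± 0.25 (95% confidence interval -1.24 to -0.08; limma unadjusted p = 0.0301, adjusted p = 0.706). Without 3xD5720, whose value rests on 27 reads, it was -0.43, more than 1.5 times closer to 0, and the serial libraries alone gave -0.51. In the duodenum Ascl2 had 2.97, 3.73, 1.86 and 5.87 FPKM in treated and 2.06, 3.12, 2.38 and 4.3 FPKM in deficient libraries, and in the colon 6.21, 7.23, 3.6 and 4.55 FPKM in treated and 6.12, 5.76, 4.77 and 2.94 FPKM in deficient libraries. Those groups overlapped, at 0.18 ± 0.27 and 0.12 ± 0.24 on the log2 scale (limma adjusted p of 0.817 and 0.957).

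Smoc2, a secreted matrix protein listed in the stem cell signature, had the highest mean level of these genes in the duodenum and ileum. It averaged 16.7 ± 1.94 FPKM in treated and 15.4 ± 1.99 FPKM in deficient duodenum. In ileal libraries it averaged 20.9 ± 2.81 FPKM in treated and 21.6 ± 1.13 FPKM in deficient libraries. In the colon the 4 treated libraries lay between 11.4 and 12.5 FPKM while the 4 deficient ones spread between 8.0 and 18.4 FPKM. The log2 differences were 0.11 ± 0.13, -0.05 ± 0.13 and -0.07 ± 0.21 (limma adjusted p of 0.76, 0.905 and 0.974), so no difference was seen beyond the spread; Smoc2 lies on chromosome 17 at 14416513 to 14541797 on the plus strand (NCBIM37).

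The next genes restrain the Wnt signal. Axin2 is a scaffold of the complex that marks beta-catenin for destruction, and as a direct target of the signal it is widely read as its gauge; it lies on chromosome 11 at 108781663 to 108812097 on the plus strand and overlaps an antisense gene (NCBIM37). In the ileum it had 14.4, 12.5, 5.54 and 17.5 FPKM in treated libraries 1, 3xD5711, 3xD5720 and 3xD5734, against 17.6, 18.5 and 16.9 FPKM in deficient libraries 1, 2 and 3. Deficient libraries stayed within a narrow band while treated ones spread widely, and 3xD5734 lay inside the deficient band. The difference was -0.57 ± 0.32 (limma adjusted p = 0.706), -0.26 without 3xD5720, and -0.28 within the serial libraries. In the duodenum Axin2 had 5.11, 5.07, 2.88 and 5.43 FPKM in treated and 4.86, 5.07, 6.13 and 5.71 FPKM in deficient libraries. In the colon it had 6.23, 8.08, 3.74 and 6.9 FPKM in treated and 7.25, 7.27, 7.94 and 7.42 FPKM in deficient libraries. Library 3xD5720 was the lowest treated one in each region; the differences were -0.22 ± 0.17 in the duodenum and -0.27 ± 0.19 in the colon (limma adjusted p of 0.649 and 0.891), and -0.05 and -0.08 without it.

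Rnf43, a membrane ubiquitin ligase that removes Frizzled receptors from the cell surface and so dampens the response to Wnt, lies on chromosome 11 at 87476224 to 87549041 on the plus strand (NCBIM37) and overlaps another gene on the same strand, so its reads may be divided between them. It varied more between libraries of one group than between the groups. In the duodenum it had 4.83, 6.32, 4.51 and 2.41 FPKM in treated libraries 1, 3xD5711, 3xD5720 and 3xD5734, against 7.29, 8.53, 6.48 and 3.32 FPKM in deficient libraries minusD5718, 1, 2 and 3. Duodenal means were 4.52 ± 1.61 FPKM in treated and 6.40 ± 2.22 FPKM in deficient libraries (-0.42 ± 0.29, log2; limma adjusted p = 0.617), a difference of -0.66 without deficient 3 and -0.20 without 3xD5734. In the ileum the treated values were 2.54, 2.7, 6.82 and 5.88 FPKM, and the deficient ones 7.65, 5.53 and 3.55 FPKM, so the groups overlapped widely. Ileal means were 4.48 ± 2.19 FPKM in treated and 5.58 ± 2.05 FPKM in deficient libraries (-0.30 ± 0.34; limma adjusted p = 0.769), a difference of -0.55 without deficient 3 and -0.08 without deficient 1. In the colon treated library 1 had 1.74 FPKM and the other 3 treated libraries 8.05, 9.54 and 7.0 FPKM, against 7.54, 7.81, 6.75 and 4.53 FPKM in deficient libraries. The colonic difference of -0.16 ± 0.39 (limma adjusted p = 0.966) was unlike in the naming schemes, at -1.40 within serial libraries and 0.10 within 4-digit ones.

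Sox9 and Cd44 are Wnt targets active beyond the stem cell. Sox9, an HMG-box transcription factor of crypt base and Paneth cells, lies on chromosome 11 at 112643538 to 112649074 on the plus strand (NCBIM37). In the duodenum it had 6.14, 6.83, 7.36 and 5.07 FPKM in treated libraries 1, 3xD5711, 3xD5720 and 3xD5734, against 5.57, 3.78, 3.9 and 4.51 FPKM in deficient libraries minusD5718, 1, 2 and 3. Only treated 3xD5734 and deficient minusD5718 crossed. The mean was 6.35 ± 0.99 FPKM in treated and 4.44 ± 0.819 FPKM in deficient duodenum (SD, n = 4 each), a log2 difference of 0.44 ± 0.15 (95% confidence interval 0.11 to 0.76; limma unadjusted p = 0.0148, adjusted p = 0.499), with 0.50 within serial and 0.16 within 4-digit libraries. In the ileum Sox9 had 5.76, 8.93, 6.84 and 5.5 FPKM in treated and 7.1, 5.47 and 7.59 FPKM in deficient libraries. In the colon it had 19.9, 13.7, 11.9 and 10.7 FPKM in treated and 15.3, 19.8, 16.2 and 16.2 FPKM in deficient libraries. The groups overlapped in both, at 0.00 ± 0.18 in the ileum and -0.28 ± 0.18 in the colon (limma adjusted p of 0.995 and 0.887).

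Cd44, a cell-surface receptor for hyaluronan on crypt cells and also on lymphocytes, lies on chromosome 2 at 102651298 to 102741822 on the minus strand (NCBIM37). In the duodenum it had 6.13, 7.73, 10.3 and 6.68 FPKM in treated and 9.92, 5.64, 4.31 and 5.82 FPKM in deficient libraries. Its mean was 7.72 ± 1.87 FPKM in treated and 6.42 ± 2.43 FPKM in deficient libraries, and deficient minusD5718, at 9.92 FPKM, exceeded 3 of the 4 treated ones. Ileal values were 6.42, 9.13, 7.0 and 6.82 FPKM in treated and 5.54, 4.66 and 6.77 FPKM in deficient libraries, a difference of 0.33 ± 0.16 (log2, limma unadjusted p = 0.0817, adjusted p = 0.706) in which deficient library 3 lay above treated library 1. In the colon it averaged 12.4 ± 2.04 FPKM in treated and 16.9 ± 5.99 FPKM in deficient libraries (-0.38 ± 0.22; limma adjusted p = 0.885), with deficient library 3 highest at 25.4 FPKM and a difference of -0.17 without it. The duodenal difference of 0.26 ± 0.23 (limma adjusted p = 0.679) came to -0.03 with the naming scheme as a covariate. Since Cd44 is read in lymphocytes too, the lymphocyte markers are given beside it: in the duodenum 0 of 10 lay above 0, with a median of -0.82 and sums of 62.1 to 691 FPKM in treated and 160 to 1470 FPKM in deficient libraries, and in the colon 0 of 9, with a median of -0.43 and sums of 46.4 to 527 FPKM in treated and 131 to 303 FPKM in deficient libraries. In the ileum 2 of 10 lay above 0, with a median of -0.39 and sums of 112 to 541 FPKM in treated and 227 to 965 FPKM in deficient libraries. The sums weigh genes by level. In the duodenum Igj alone had 44.6 to 617 FPKM in treated and 97.1 to 1360 FPKM in deficient libraries, so the highest duodenal sums were mostly that gene. The part of lymphocytes in the Cd44 values was not tested.

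Ephb2 and Ephb3 are receptor tyrosine kinases that Wnt signalling raises toward the crypt base; they bind ephrin-B ligands on neighbouring cells and keep proliferating and differentiating cells in their places along the crypt. Ephb3 was the gene whose low p recurred in more than one region. The ileal libraries share their numbers with colonic ones, and deviations correlated over 0.1 in 6 of 7 same-numbered pairs (median 0.26). The ileum and colon are therefore not counted as independent observations. Ephb3 lies on chromosome 16 at 21204828 to 21223378 on the plus strand (NCBIM37). In the ileum it had 2.57, 2.69, 2.73 and 2.97 FPKM in treated libraries 1, 3xD5711, 3xD5720 and 3xD5734, against 3.62, 4.03 and 3.72 FPKM in deficient libraries 1, 2 and 3. The groups stood apart with narrow spreads, 2.74 ± 0.17 FPKM in treated (SD, n = 4) and 3.79 ± 0.214 FPKM in deficient ileum (SD, n = 3), a log2 difference of -0.36 ± 0.12 (95% confidence interval -0.63 to -0.09; limma unadjusted p = 0.0157, adjusted p = 0.706). The serial libraries alone gave -0.42, and with any 1 library left out the difference lay between -0.39 and -0.32. In the colon Ephb3 had 7.13, 5.4, 4.2 and 6.45 FPKM in treated and 6.82, 9.01, 8.45 and 7.93 FPKM in deficient libraries. Treated library 1 was above deficient minusD5718 there, and the means were 5.80 ± 1.28 FPKM in treated and 8.05 ± 0.932 FPKM in deficient colon (SD, n = 4 each), a difference of -0.43 ± 0.16 (95% confidence interval -0.80 to -0.06; limma unadjusted p = 0.0276, adjusted p = 0.846), with -0.22 within serial and -0.32 within 4-digit libraries. In the duodenum it had 1.45, 2.05, 1.94 and 1.85 FPKM in treated and 1.36, 1.84, 1.54 and 1.55 FPKM in deficient libraries, which overlapped (0.13 ± 0.12; limma adjusted p = 0.688).

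Ephb2, on chromosome 4 at 136203454 to 136391903 on the minus strand (NCBIM37), had no such low p in any region. It averaged 1.62 ± 0.219 FPKM in treated and 1.55 ± 0.587 FPKM in deficient duodenum. Ileal means were 2.40 ± 0.204 FPKM in treated and 2.32 ± 0.0963 FPKM in deficient libraries, and in the colon 4.18 ± 0.647 FPKM in treated and 4.88 ± 0.93 FPKM in deficient libraries. The differences were 0.07 ± 0.19, 0.03 ± 0.12 and -0.18 ± 0.16 (log2; limma adjusted p of 0.9, 0.936 and 0.909). Efnb1, which encodes the ligand ephrin-B1, had the smallest p of the other Wnt-related targets listed in both small-intestinal regions. The list does not say whether Wnt signalling raises or lowers Efnb1, so its direction is not read together with that of Ephb3. In the duodenum it lay between 17.1 and 18.5 FPKM in treated and between 21.9 and 24.0 FPKM in deficient libraries, without overlap (4.37% of all genes did not overlap there). The duodenal difference was -0.36 ± 0.08 (limma unadjusted p = 0.0022, adjusted p = 0.479). Ileal values of Efnb1 lay between 23 and 33.6 FPKM in treated and between 34.4 and 38.5 FPKM in deficient libraries, at -0.35 ± 0.15 (limma unadjusted p = 0.0447, adjusted p = 0.706), but only -0.09 within the serial libraries. In the colon its ranges, 29.9 to 38.7 FPKM in treated and 33.4 to 50.8 FPKM in deficient libraries, overlapped (-0.30 ± 0.15; limma adjusted p = 0.863).

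Whether a response differed between regions was tested as a difference of differences in 1 fit over the 23 libraries. None of the 9 genes, and 0 of 13390 genes (0%), passed for any of the 3 pairs of regions by limma; the unadjusted p was under 0.05 in 262 genes for duodenum minus colon (1.96%), 452 for ileum minus colon (3.38%) and 607 for duodenum minus ileum (4.53%). For the duodenum minus colon the smallest unadjusted p of the 9 was that of Ephb3, with a difference of 0.56 ± 0.17 (limma unadjusted p = 0.00398, adjusted p = 1), followed by Sox9 with 0.71 ± 0.24 (limma unadjusted p = 0.00842, adjusted p = 1). For the duodenum minus ileum Ephb3 came to 0.49 ± 0.18 (limma unadjusted p = 0.0128, adjusted p = 0.865) and Ascl2 to 0.84 ± 0.40 (limma unadjusted p = 0.0491, adjusted p = 0.865). For the ileum minus colon Cd44 came to 0.71 ± 0.33 (limma unadjusted p = 0.0422, adjusted p = 0.971). Lgr5 came to 0.00 in all 3. A p that misses the threshold does not show that the regions responded alike.

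Between the regions, mean levels in deficient mice differed by between 1.19-fold (Rnf43) and 5.13-fold (Ephb3) from highest to lowest. The regions were normalized in separate tables, so the levels are a description with no test. The share of all genes that stand apart between regions was not counted. A lack of overlap is therefore not read as particular to these genes. Ephb3 averaged 8.05 FPKM in the colon, 3.79 in the ileum and 1.57 in the duodenum, with no overlap between neighbouring regions. Ephb2 ran in the same order, with 4.88, 2.32 and 1.55 FPKM and no overlap between neighbours. Sox9 also ran in this order, at 16.9, 6.72 and 4.44 FPKM, but only the colon stood apart, and for Cd44, with 16.9 FPKM in the colon, 6.42 in the duodenum and 5.65 in the ileum, again only the colon did. Axin2 and Lgr5 were highest in the ileum: Axin2 had 17.7 FPKM there, 7.47 in the colon and 5.44 in the duodenum. Lgr5 had 4.53 FPKM in the ileum and 3.57 in the colon, which overlapped, and 1.85 in the duodenum, which stood apart. Smoc2 was also highest in the ileum, at 21.6 FPKM, with the duodenum at 15.4 and the colon at 13.1 overlapping each other. Ascl2, at 4.90 FPKM in the colon, 4.88 in the ileum and 2.97 in the duodenum, and Rnf43, at 6.66, 6.40 and 5.58 FPKM in the colon, duodenum and ileum, overlapped between all neighbours.

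The 9 genes did not vary as a block. For each library the deviation of log2(FPKM + 1) from its group mean was taken, and pairs of genes were correlated over the 23 deviations, which share libraries, depth and, between regions, library numbers. Of 36 pairs 16 correlated above 0, with a median of -0.02 and a range from -0.41 (Ephb2 with Ephb3) to 0.71 (Ascl2 with Axin2). The Ascl2 and Axin2 pair reached 0.70, 0.94 and 0.55 within the duodenum, ileum and colon. Library 3xD5720 carried it: without its 3 samples the correlation over the other 20 was 0.20, an alternative added after the data were seen. Lgr5 correlated most with Rnf43 among the set, at 0.46, and Cd44 with Sox9 at 0.40, which was 0.83 in the duodenum, 0.92 in the ileum and -0.13 in the colon.

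**Figure D3:**
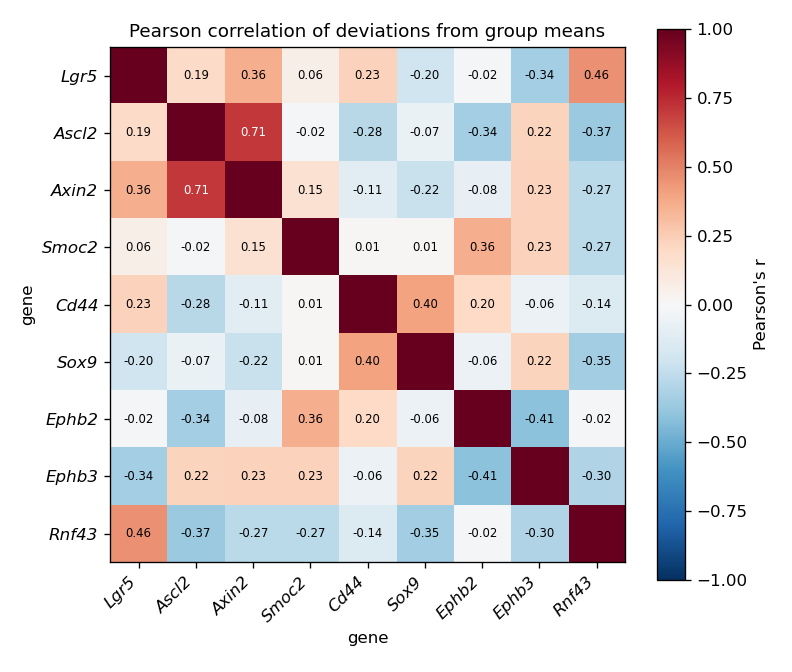
Pearson correlation between each pair of the 9 genes in deviations of log2(FPKM + 1) from the group means over 23 libraries. The values run from -0.41 for Ephb2 with Ephb3 to 0.71 for Ascl2 with Axin2.

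**Figure D4:**
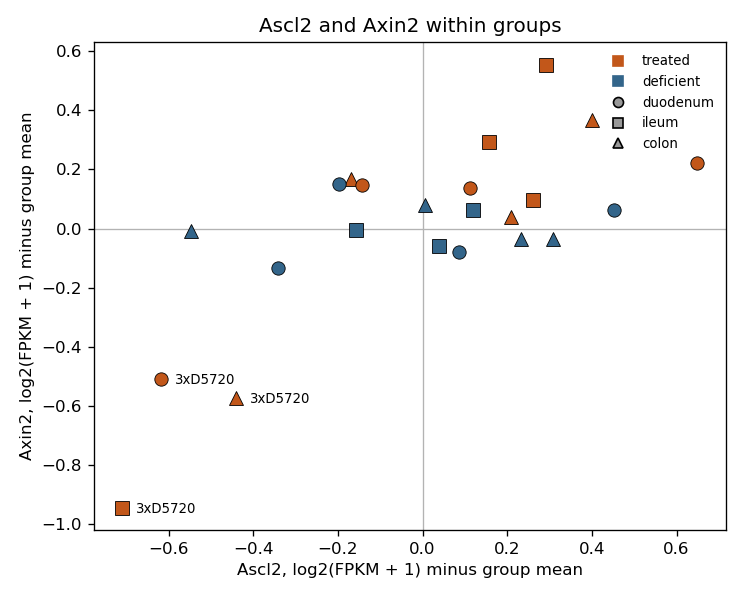
Deviation of Axin2 against that of Ascl2 from their group means (log2(FPKM + 1)) in each of 23 libraries, treated in orange and deficient in blue, with circles for the duodenum, squares for the ileum and triangles for the colon. The 3 points of library 3xD5720 lie at the lower left, and without it the correlation over all regions is 0.20.

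In 3xD5720 both Axin2 and Ascl2 were the lowest of the treated libraries in all 3 regions, Axin2 at 2.88, 5.54 and 3.74 FPKM and Ascl2 at 1.86, 1.27 and 3.6 FPKM in the duodenum, ileum and colon. The same library number had the lowest summed lymphocyte markers of all libraries of its region, 62.1, 112 and 46.4 FPKM. Such sums weigh genes by level, and the highest duodenal ones were mostly Igj. It also had the highest summed proliferation markers among the treated libraries, 365, 491 and 400 FPKM. In the colon its pancreatic markers summed to 27200 FPKM, the highest there. Over the 23 libraries the deviations of Axin2 correlated at 0.67 with those of the tuft cell markers, 0.56 with smooth muscle, 0.51 with myeloid, 0.48 with fibroblast, 0.45 with lymphocyte and -0.53 with proliferation markers. Those of Ascl2 correlated at 0.59 with tuft cell, 0.45 with lymphocyte, -0.55 with pancreatic and -0.56 with proliferation markers. Over the 20 libraries without 3xD5720 the values for Axin2 were -0.27, 0.23, 0.16, 0.09, -0.34 and -0.02 in the same order, and those for Ascl2 were 0.18, 0.04, -0.51 and -0.31, so of these only the relation of Ascl2 to the pancreatic markers stayed above 0.5 in size. Relations to colonocyte and goblet cell markers grew instead. Axin2 correlated with colonocyte markers at -0.21 over the 23 libraries and -0.58 over the 20. Ascl2 correlated with goblet cell markers at 0.14 over the 23 and 0.51 over the 20. The part of these markers in the lower treated values was not tested.

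Lgr5 was also set against the genes outside the set, 10934 in number, that passed the filter in all 3 regions. Each of them had a value above 0 in all libraries. Among the 5 genes outside the set most like it in deviations over the 23 libraries were Grk5, a G protein-coupled receptor kinase, at 0.88, Zfp58 at 0.79, Eps15, an endocytic adaptor, at 0.79, and Zfp947 at 0.78. The other genes of the set were ranked together with those outside it. Rnf43 ranked 1053, Axin2 2003 with 0.36, Cd44 3255 with 0.23, Ascl2 3622 with 0.19, and Ephb3 8928 with -0.34. None of the set was among the 5 closest to Lgr5 from library to library.

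Of the rest of the pathway, in lists made with earlier results of these data known, no gene was called in any region. Upstream of the receptors, 8 Wnt ligands were listed, of which 3, 5 and 2 were tested in the duodenum, ileum and colon, and 1, 1 and 0 lay above 0. Wnt4 had the smallest p of them in the ileum, averaging 3.14 ± 1.71 FPKM in treated and 4.76 ± 0.588 FPKM in deficient libraries (-0.56 ± 0.30; limma adjusted p = 0.706), but 0.13 within serial libraries. Wnt2b had it in the duodenum (-0.34 ± 0.21) and in the colon (-0.31 ± 0.24). Of R-spondins and receptors, 1 of 5, 4 of 6 and 1 of 6 lay above 0. Fzd7, a Frizzled receptor of the crypt base, came to -0.38 ± 0.17 in the duodenum and -0.33 ± 0.16 in the ileum (limma adjusted p of 0.528 and 0.706). Rspo3, an R-spondin made by cells beneath the crypt, came to 0.47 ± 0.31 in the colon (limma adjusted p = 0.887).

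Inside the cell, 4, 6 and 6 of the 11 components tested in each region lay above 0. Pygo2, a co-activator of beta-catenin, had the lowest p of any pathway gene listed in the duodenum (-1.07 ± 0.23, limma unadjusted p = 0.00118, adjusted p = 0.479). It averaged 0.383 ± 0.482 FPKM in treated and 1.79 ± 0.252 FPKM in deficient libraries. Treated values ran from 0 to 1 FPKM and deficient ones from 1.57 to 2.07 FPKM, without overlap, as for 4.37% of all genes there. Pygo2 thus reached the filter on low values through the deficient libraries, where it was high. Its p and lack of overlap are therefore not read as support for a change. Btrc, which targets beta-catenin for destruction, averaged 3.09 ± 0.303 FPKM in treated and 2.18 ± 0.264 FPKM in deficient colon without overlap, as for 4.54% of all genes there (0.36 ± 0.12; limma unadjusted p = 0.0162, adjusted p = 0.846). In the ileum Pygo2 lay in the other direction, at 2.99 ± 0.601 FPKM in treated and 2.19 ± 0.429 FPKM in deficient libraries without overlap (0.32 ± 0.17; limma adjusted p = 0.706), and in the colon it came to -0.34 ± 0.15 (limma adjusted p = 0.846). Bcl9l, another co-activator, averaged 5.69 ± 1.2 FPKM in treated and 3.17 ± 0.828 FPKM in deficient duodenum without overlap (0.69 ± 0.19; limma unadjusted p = 0.00527, adjusted p = 0.499). It came to 0.44 ± 0.19 in the ileum and 0.10 ± 0.20 in the colon (limma adjusted p of 0.706 and 0.956). Of the antagonists, 1 of 5, 0 of 5 and 6 of 9 lay above 0, with Nkd1 at -0.19 ± 0.12 in the duodenum, Sfrp5 at -0.41 ± 0.23 in the ileum and Wif1 at 0.29 ± 0.17 in the colon. Other Wnt targets were split evenly, with 6 of 11, 7 of 12 and 7 of 13 above 0 and medians of 0.14, 0.01 and 0.01. That list was not sorted by whether the Wnt signal raises or lowers a gene. Its counts and medians therefore give no direction of the signal. Myc, which drives growth and division, averaged 8.00 ± 1.96 FPKM in treated and 6.07 ± 0.491 FPKM in deficient colon (0.33 ± 0.16; limma adjusted p = 0.863).

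Other genes of the stem cell signature lay below 0 in 6 of 11 cases in the duodenum, 10 of 12 in the ileum and 10 of 13 in the colon, with medians of -0.11, -0.15 and -0.17 against 0.011, 0.012 and -0.014 for all genes. Aqp4, a water channel, averaged 9.33 ± 5.25 FPKM in treated and 21.5 ± 4.92 FPKM in deficient colon without overlap (-1.25 ± 0.36; limma unadjusted p = 0.00665, adjusted p = 0.742). Cdca7, a nuclear protein of dividing cells, averaged 18.3 ± 2.43 FPKM in treated and 23.2 ± 0.756 FPKM in deficient ileum without overlap (-0.33 ± 0.13; limma unadjusted p = 0.0373, adjusted p = 0.706). Clca4 had the smallest p in the duodenum (-0.60 ± 0.35), with -0.29 without deficient 3, -0.35 within serial and -0.10 within 4-digit libraries. Among markers of slow-cycling or reserve stem cells 5 of 6, 2 of 6 and 2 of 6 lay above 0. Bmi1, a Polycomb protein, came to 0.22 ± 0.13 in the duodenum and to 0.47 ± 0.22 in the ileum, and Lrig1, a restraint on EGF receptors, to -0.21 ± 0.12 in the colon (limma adjusted p of 0.595, 0.706 and 0.885). Of the BMP, Notch and EGF genes of the niche, 8 of 14, 6 of 15 and 9 of 17 lay above 0. Dll1, a Notch ligand of early secretory cells, averaged 3.93 ± 0.43 FPKM in treated and 5.37 ± 0.585 FPKM in deficient colon without overlap (-0.37 ± 0.12; limma unadjusted p = 0.0156, adjusted p = 0.846). Atoh1, the factor that sets the secretory fate, came to 0.35 ± 0.17 in the duodenum (limma adjusted p = 0.544).

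Several pathway values that missed the test also moved by over 1.5 times with 1 library left out. In the duodenum these were Wnt2b (-0.17 without deficient 1), Fzd7 (-0.24 without 3xD5720) and Bmi1 (0.14 without 3xD5720). In the ileum they were Wnt4 (-0.37), Sfrp5 (-0.22) and Bmi1 (0.30), each without 3xD5720. In the colon they were Wnt2b (-0.18 without deficient 2), Rspo3 (0.23 without minusD5718), Wif1 (0.18 without 3xD5711), Myc (0.19 without 3xD5711) and Lrig1 (-0.32 without minusD5718).

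Crypt neighbours of the stem cells were read from marker lists. Paneth cell markers, the antimicrobial genes of cells that flank Lgr5-positive cells, summed to between 41300 and 60300 FPKM in treated and between 60700 and 106000 FPKM in deficient ileum, with 1 of 7 above 0 and a median of -0.41; the ranges of the sums nearly met. The same markers lay above 0 in 3 of 7 cases in the duodenum (median -0.01) and in 6 of 7 in the colon (median 0.73). Their duodenal sums overlapped, at 3730 to 6920 FPKM in treated and 2070 to 11800 FPKM in deficient libraries. Colonic sums were far lower and also overlapped, at 146 to 1220 FPKM in treated and 252 to 907 FPKM in deficient libraries. Whether the colonic values came from Paneth cells was not tested. Proliferation markers lay above 0 in 10 of 13 cases in the duodenum, 8 of 13 in the ileum and 2 of 13 in the colon, with sums of 277 to 365 FPKM in treated and 253 to 333 FPKM in deficient duodenum. Ileal sums were 274 to 491 FPKM in treated and 258 to 389 FPKM in deficient libraries. Colonic sums were 254 to 400 FPKM in treated libraries. In deficient colonic libraries minusD5718, 1, 2 and 3 they were 249, 281, 279 and 615 FPKM. The colonic count was not taken without deficient library 3. Goblet cell markers were above 0 in 5 of 8, 4 of 8 and 2 of 8, and tuft cell markers in 1 of 3, 0 of 3 and 1 of 4. Markers of the stomach summed to between 128 and 7730 FPKM in treated and between 34.6 and 10200 FPKM in deficient duodenum, and they split by naming scheme: the 4-digit libraries, 3 treated and 1 deficient, had 5580 to 10200 FPKM, and the serial ones, 1 treated and 3 deficient, 34.6 to 205 FPKM. Stomach transcripts thus split by naming scheme, with 128 FPKM in treated library 1 and 10200 FPKM in deficient minusD5718. The schemes are unevenly spread over the treated and deficient groups, so the group means of these transcripts differ with them. Over the 23 libraries the deviations of Cd44 correlated at 0.52 with those of the stomach markers and at -0.17 with lymphocyte markers. For the other genes of the set the correlation with stomach markers ran from -0.22 (Axin2) to 0.26 (Sox9). The part of these cell types in the values of the 9 genes was not tested.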

How the data were processed

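FPKM per gene symbol was computed by the authors before deposit, with 1 column per library. CLC Genomics Workbench mapped the reads, per the labels' protocols; the submitters' processing notes also name kallisto 0.45.0, mm9, DESeq2 and DESeq 1.14.0, whose roles are not given in the sources used here. As the 8-library ileum table equals that of the duodenum in 171528 of 171528 values, the 7-library ileum table was used, with 4 treated and 3 deficient libraries, which departs from the planned 4 and 4. Columns headed Vehicle were taken as deficient, since the tables hold no other group. Whole reads within 0.0001 were recovered for 14864 of 17938 genes (82.9%), not for Cd44, and gave the depth; the depth limits low genes.

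Per region, genes reaching 1 FPKM in 3 or more libraries were tested on log2(FPKM + 1), which understates the change of low genes, with limma 3.58.1 (lmFit, eBayes with trend; R 4.3.3), two-sided, with Benjamini-Hochberg adjustment at 0.05. Log2 differences are on that scale, whereas the fold differences between regions are ratios of mean FPKM. Differences between regions came from 1 fit of 6 group means. The scripts were tested on simulated data.

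The members and the gene lists were chosen with earlier results of these data known. Named were the members, Cyp24a1, the gene of each pathway list with the smallest p per region (Efnb1, Pygo2 and Bcl9l also in other regions, chosen after their values were seen), and the 5 genes most like Lgr5 (some genes under this rule are not reported here); marker lists are given as counts and sums, which departs from the rule for them. Same-numbered libraries of different regions were checked for pairing: correlations of deviations were over 0.1 in 7 of 7 pairs of duodenum and ileum (median 0.24), 7 of 8 of duodenum and colon (lowest -0.05) and 6 of 7 of ileum and colon (lowest 0.05). Gene positions are from gencode vM1 on NCBIM37; promoters are RefSeq's.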

Additional observations from a re-analysis of the deposited data

Results flagged for a closer look

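In 50 groups of 4 libraries tested, 4 held a library whose distance from the others passed Dixon's criterion; about 1 in 20 groups would by chance. Axin2 in treated duodenum had 2.88 FPKM in 3xD5720, against 5.07 to 5.43 FPKM in the other 3 treated libraries. Cyp24a1 in treated ileum had 543 FPKM in 3xD5720, against 5.34 to 40.3 FPKM in the others. Cyp24a1 in deficient duodenum had 0.418 FPKM in minusD5718, against 0.00846 to 0.0185 FPKM in the others, and in deficient colon 0.0814 FPKM in library 3, against 0.0107 to 0.0183 FPKM.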

How the results depend on the processing

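No member passed the adjusted threshold under any alternative: over 285 values from other settings and 828 with 1 library left out the smallest adjusted p was 0.201, and 15 and 68 of these changed sign; the cause was not tested. Depth limits the low genes, Ascl2 above all. No paired analysis was possible because the columns carry no replicate number of the labels within a region; between regions, a replicate block by library number left the calls at 0 in all 3 pairs and turned Lgr5 and Cd44 to 0.04 each for duodenum minus ileum.

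Of all genes, the duodenum gave 1 call with a pseudocount of 0.1, 1 with quantile normalization, 1 with the naming scheme as a covariate and 0 with voom (Cyp24a1 12.99, adjusted p = 0.146), and 1 to 4 with a library left out, 1 without each of 3xD5711, 3xD5720, 3xD5734 and deficient 2. The ileum gave 1 with no filter and 1 with voom, and 0 with any library left out. The colon gave 2 with the naming scheme as a covariate, 1 without treated 1 (Cyp24a1 7.76, adjusted p = 5e-04) and 3 without deficient 3, a range of 0 to 3. Between regions, a pseudocount of 0.1 gave 1 for duodenum minus colon and 1 for duodenum minus ileum; no filter gave 1 and the naming scheme 1 for ileum minus colon; with a library left out these 3 pairs ranged over 0 to 1, 0 to 1 and 0 to 2.

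With the naming scheme as a covariate, duodenal Cd44 came to -0.03, ileal Ephb2 to -0.08, ileal Wnt4 to 0.13 and colonic Smoc2 to 0.14. For duodenum minus colon it gave Lgr5 0.18 and Rnf43 0.2, for ileum minus colon Smoc2 -0.39, Sox9 -0.12 and Ephb3 -0.16, and for duodenum minus ileum Lgr5 0.19 and Rnf43 0.4. For ileum minus colon Lgr5 came to 0.01 with a pseudocount of 0.1 and Smoc2 to -0.01 with quantile normalization, which gave Lgr5 0.06 for duodenum minus ileum. With 1 library left out, duodenal Ascl2 ran between -0.04 and 0.38 and Ephb2 between -0.11 and 0.16, ileal Smoc2 between -0.13 and 0.01 and Sox9 between -0.13 and 0.08, and colonic Ascl2 between -0.07 and 0.26, Smoc2 between -0.26 and 0.11 and Rnf43 between -0.37 and 0.28. Likewise, for duodenum minus colon, Lgr5 ran between -0.12 and 0.12, Ascl2 between -0.16 and 0.27 and Axin2 between -0.14 and 0.21. For ileum minus colon, Lgr5 ran between -0.12 and 0.11, Axin2 between -0.49 and 0.01, Smoc2 between -0.16 and 0.21, Ephb3 between -0.05 and 0.16 and Rnf43 between -0.58 and 0.07. For duodenum minus ileum, Lgr5 ran between -0.11 and 0.12, Cd44 between -0.21 and 0.14, Ephb2 between -0.14 and 0.13 and Rnf43 between -0.35 and 0.13.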
